A study of Mus musculus with 6 samples.

Results

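The genes described here are 9 mouse genes of cellular iron handling, of 23462 genes named on the arrays. They are the ferritin subunits Fth1 and Ftl1 and the ferritin receptor Ncoa4 (storage), Tfrc, Steap3, Slc11a2 and Slc11a1 (uptake), Slc40a1 (export) and Ireb2 (regulation). They were chosen by name, and a probe was taken as measuring one of them when its transcript accession matched that gene symbol, which gave 15 of 56605 probes. Microglia were taken from male mice of C57BL/6 background, aged 10 weeks, in 2 groups with 3 arrays in each. PGC-1αf/f mice, the controls, carry a loxP-flanked PGC-1α transgene linked to eGFP, which is silent without Cre. mPGC-1α mice carry the same transgene together with Cx3cr1-CreERT2, a tamoxifen-inducible Cre placed in the Cx3cr1 locus, which is active in microglia and in other Cx3cr1-expressing myeloid cells. Both groups share the floxed transgene, and the cells of both were selected magnetically through the surface receptor P2RY12. The study's methods describe tamoxifen treatment of its mice, followed by weeks without treatment ahead of the experiments, and name littermate controls without setting them apart, but do not speak of the mice of these arrays. The labels do not say whether the 3 samples of a group came from separate animals or from pools, so p-values measure only the spread between these samples.

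Iron enters most cells as transferrin bound to the transferrin receptor (Tfrc), is reduced in endosomes by STEAP3 and crosses the endosomal membrane through DMT1, which Slc11a2 encodes. Iron that is not used is held inside the shell of ferritin, which NCOA4 delivers to lysosomes when iron is needed, and leaves the cell only through ferroportin, which Slc40a1 encodes. The iron regulatory proteins, of which Ireb2 encodes one, bind RNA hairpins in the ferritin, ferroportin, Tfrc and Slc11a2 transcripts when iron is scarce, blocking translation of the ferritins and ferroportin and stabilizing Tfrc mRNA. Microglia and other macrophages also carry NRAMP1, the Slc11a1 product, which moves divalent metals out of the phagosome, and C57BL/6 mice carry a non-functional form of this protein. Ppargc1a encodes PGC-1α, a coactivator of nuclear receptors, among them the estrogen-related receptors.

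Promoter sequence from RefSeq (build GRCm38.p6), spanning 250 bases before to 50 bases after each listed start, was found for 7 of the 9 genes in 14 windows. Slc11a2 and Slc40a1 had no entry. Both strands were searched for AAGGTCA, the motif of the estrogen-related receptors through which PGC-1α acts, and for TGACNNNGC, the core of the antioxidant response element known from iron and redox genes. AAGGTCA occurred in 1 of the 14 windows, that of Slc11a1, where it starts 144 bases before the transcription start, and in 4.72% of all 32851 windows. TGACNNNGC occurred in 1 of the 14 windows, 1 of the 3 of Ncoa4, where it starts 44 bases before the transcription start, and in 12.4% of all windows. The motifs did not overlap each other. The windows that hold a match are printed 5′ to 3′ with the matched letters in capitals. The array values of both genes separate the groups on the brightest probe, and so do those of Ireb2, whose window holds no match.
Slc11a1, chr1:74374953-74375252, plus strand: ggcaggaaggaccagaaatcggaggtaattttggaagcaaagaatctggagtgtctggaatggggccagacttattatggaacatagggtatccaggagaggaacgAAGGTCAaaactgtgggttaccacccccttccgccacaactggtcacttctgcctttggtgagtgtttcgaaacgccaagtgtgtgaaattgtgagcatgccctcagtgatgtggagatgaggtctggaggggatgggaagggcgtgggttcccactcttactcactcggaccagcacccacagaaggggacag
Ncoa4, chr14:32165539-32165838, plus strand: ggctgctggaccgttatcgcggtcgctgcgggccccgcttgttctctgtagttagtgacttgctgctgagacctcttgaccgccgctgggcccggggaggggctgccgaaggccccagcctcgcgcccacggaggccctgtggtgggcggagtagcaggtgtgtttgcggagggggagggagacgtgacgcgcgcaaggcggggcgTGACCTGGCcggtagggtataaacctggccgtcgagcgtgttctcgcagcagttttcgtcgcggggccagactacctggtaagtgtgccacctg
A match is a description of these letters and no evidence of binding.

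Levels are given as log2 intensity minus the 75th percentile of the same array, so a value of 0 is the signal of a spot at that percentile, and a difference of 1 is a doubling. They compare arrays for one probe and do not rank genes. Between 27025 and 30272 of 59305 spots per array were well above background, and no spot was saturated. The array of PGC-1αf/f replicate 3 stood apart, with a mean correlation of 0.928 to the other arrays against 0.962 to 0.972 for the rest. Its summed signal of 12 blood leukocyte markers was 18.8 times the 75th percentile, against 112 and 133 for replicates 1 and 2 and 133 to 162 in mPGC-1α. The overexpressed gene itself, Ppargc1a, read 0.19, -0.44 and -1.21 in PGC-1αf/f and 0.57, 0.28 and 0.08 in mPGC-1α on its brighter probe. The difference was 0.80 ± 0.35 (SE) with an adjusted p of 0.306 and overlapping groups, and without PGC-1αf/f replicate 3 it was 0.44. It runs the way the labels say without passing the test, and the place of the probe relative to the transgene is not given. All 10 microglial markers, among them P2ry12 and Tmem119, were well above background on every array. The summed signal of the 5 of them with a value on all arrays was 73.5 to 86.3 in PGC-1αf/f and 64.3 to 70.0 in mPGC-1α. One of the 5 is Cx3cr1, whose locus holds the Cre in mPGC-1α mice, and the sums of the other 4 overlapped (54.0 to 63.3 and 48.9 to 56.7). All 5 were lower in mPGC-1α, with or without PGC-1αf/f replicate 3, and Cx3cr1 was lower by 0.51 with groups apart (adjusted p = 0.194).

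To determine whether the iron genes differed between microglia with and without PGC-1α overexpression, each probe was fitted with limma and p-values were adjusted over all tested probes. None of the 8 genes with a tested probe passed an adjusted p of 0.05, a threshold that 0.0792% of the 25257 probes with a p-value passed. Of these 8 genes, 4 were higher and 4 lower in mPGC-1α, and their adjusted p-values ran from 0.282 to 0.702. Their median difference was -0.0015 on the log2 scale, beside -0.0026 over all tested probes. At an unadjusted p of 0.05, 1 gene was higher (Slc11a1) and 1 lower (Slc40a1), where 7.53% of all tested probes were higher and 9.21% lower. The groups did not overlap for 1 gene that was higher (Slc11a1) and for 3 that were lower (Slc40a1, Ireb2 and Ncoa4). Of all tested probes with a value on every array, 11.4% were higher and 13.7% lower without overlap, so the share of genes on the higher side, 12.5%, was close to the background. On the lower side the share was 37.5% of 8 genes. Without PGC-1αf/f replicate 3 the same counts of genes without overlap were 1 and 3, beside backgrounds of 14.8% and 16.3%, and no gene of the 8 had an unadjusted p under 0.05, where 6.08% of all probes were higher and 6.52% lower.

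**Figure D1:**
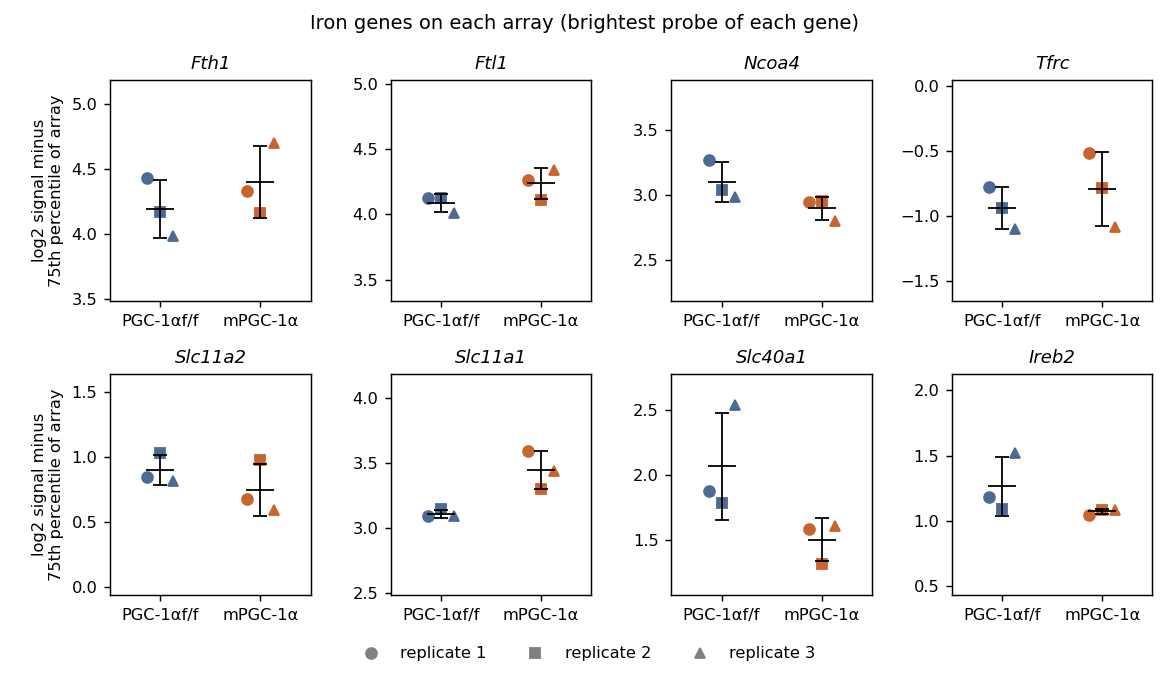
Log2 signal minus the 75th percentile of the array (vertical axis, with the same span in each panel) for the brightest probe of 8 iron genes in PGC-1αf/f (blue) and mPGC-1α (orange). Points are arrays, with the replicate number as the symbol, and bars are the mean ± SD of 3 arrays. The groups are apart in the panels of Slc11a1, Slc40a1, Ncoa4 and, narrowly, Ireb2, and PGC-1αf/f replicate 3 is the highest array for Slc40a1 and Ireb2.

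Export through ferroportin showed the largest difference of the 8 genes. Slc40a1 read 1.88, 1.785 and 2.54 in PGC-1αf/f and 1.59, 1.32 and 1.61 in mPGC-1α. All mPGC-1α arrays lay under all PGC-1αf/f arrays, and replicate 3 of PGC-1αf/f lay well above the other 5. The means were 2.07 ± 0.41 and 1.51 ± 0.16 (SD, n = 3 each). The difference was -0.56 ± 0.23 (SE, 95% interval -1.10 to -0.03), which is 1.48-fold lower in mPGC-1α, with an adjusted p of 0.284 by limma and an unadjusted p of 0.0415. Leaving out PGC-1αf/f replicate 3 brought it to -0.33 ± 0.16 (SE, adjusted p = 0.466), still without overlap. Within slide column 1 the difference between the pair of arrays was -0.29, and within column 2 it was -0.47. In these bulk samples, fewer cells of a type and less RNA per cell cannot be told apart.

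Among the markers of other cells, those of oligodendrocytes were mostly lower in mPGC-1α, as Slc40a1 was. The summed signal of 8 oligodendrocyte markers, a cell type that also uses much iron, was 14.3, 14.1 and 20.3 times the 75th percentile in PGC-1αf/f and 10.0 to 11.2 in mPGC-1α, and 6 of the 7 markers measured in both groups were lower in mPGC-1α, with or without PGC-1αf/f replicate 3. Within mPGC-1α, replicate 3 had the highest Slc40a1 level (1.61) and the lowest oligodendrocyte sum (10.0). On PGC-1αf/f replicate 3 both Slc40a1 and the oligodendrocyte sum were at their highest. The blood leukocyte markers went the other way, with 12 of 12 higher in mPGC-1α and their lowest sum on that same array. Their median difference was 1.18, and 0.34 without that array. Cd79a, which marks B cells, was on no array well above background. The summed signal of 7 border macrophage markers was 18.2 to 19.6 in PGC-1αf/f and 17.8 to 28.2 in mPGC-1α, with all 7 higher in mPGC-1α, also without that array, and Mrc1 left out for want of a value on every array. The sum of 5 erythroid markers was 11.6 to 34.5 in PGC-1αf/f and 20.2 to 37.4 in mPGC-1α. Of these, 3 were well above background with a value on every array. All 3 were higher over all arrays and all were lower without PGC-1αf/f replicate 3. Hbb-bt was left out for want of a value on every array. The sums overlapped between the groups for 6 neuronal markers (12.4 to 16.1 in PGC-1αf/f, 14.5 to 16.4 in mPGC-1α, Slc17a7 on no array above background), 7 astrocyte markers (16.3 to 22.8 and 19.5 to 30.6) and 5 endothelial and mural markers (1.72 to 3.85 and 3.31 to 4.57, Rgs5 and Kcnj8 on no array above background). The 5 microglial markers were lower too. The part of these cells in the Slc40a1 difference was not tested.

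**Figure D2:**
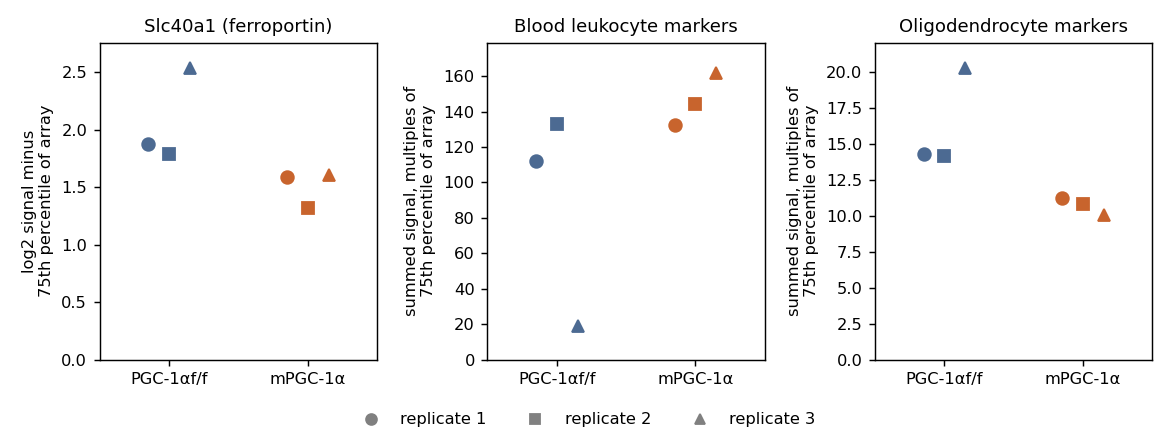
Slc40a1 as log2 signal minus the 75th percentile of the array (left), and the summed signal of 12 blood leukocyte markers (middle) and 8 oligodendrocyte markers (right) in multiples of that percentile, for the 3 arrays of each group. PGC-1αf/f replicate 3 has the highest Slc40a1 level, the lowest leukocyte sum (18.8) and the highest oligodendrocyte sum (20.3).

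Slc11a1, the phagosomal metal transporter of macrophages, showed the largest difference on the higher side. It read 3.09, 3.15 and 3.10 in PGC-1αf/f and 3.59, 3.30 and 3.44 in mPGC-1α. All mPGC-1α arrays were above all PGC-1αf/f arrays, which lay close together. The means were 3.11 ± 0.03 and 3.445 ± 0.15 (SD, n = 3 each), a difference of 0.33 ± 0.13 (SE, 95% interval 0.02 to 0.65) or 1.26-fold, with an adjusted p of 0.282 and an unadjusted p of 0.0405. Without PGC-1αf/f replicate 3 it was 0.32 ± 0.16 (SE), with an unadjusted p of 0.0772. The leukocyte sums of the remaining arrays were 112 and 133 in PGC-1αf/f and 133 to 162 in mPGC-1α, and the part of these cells in the Slc11a1 difference was not tested. Within slide columns 1 and 2 it was 0.50 and 0.15.

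Tfrc and Slc11a2, which act in sequence on transferrin-bound iron, overlapped between the groups. Tfrc read -0.78, -0.94 and -1.10 in PGC-1αf/f and -0.51, -0.78 and -1.08 in mPGC-1α, with no array of either group apart from the rest. Its difference was 0.15 ± 0.18 (SE, 95% interval -0.29 to 0.58, adjusted p = 0.702), an interval that leaves room for a change in either direction, and it was 0.01 without mPGC-1α replicate 1. Within slide columns 1 and 2 it was 0.26 and 0.16. The other Tfrc probe was on no array well above background. Slc11a2 read 0.85, 1.03 and 0.82 in PGC-1αf/f and 0.68, 0.97 and 0.59 in mPGC-1α on its brightest probe. Replicate 2 was the highest array in both groups. The difference was -0.15 ± 0.15 (SE, 95% interval -0.51 to 0.21, adjusted p = 0.636), and it was -0.17 and -0.06 within slide columns 1 and 2. With single arrays left out it ran from -0.26 (without mPGC-1α replicate 2) to -0.07 (without mPGC-1α replicate 3). The next brightest probe gave -0.10 ± 0.23 (SE, adjusted p = 0.848). The third Slc11a2 probe, matched to another transcript variant, was well above background on 2 of 3 arrays of each group and was not tested. Its values were -3.05, -2.68 and -2.78 in PGC-1αf/f and -3.24, -3.33 and -3.70 in mPGC-1α, lower in mPGC-1α without overlap, and the remaining probe was on no array well above background. Steap3, the endosomal ferrireductase, was well above background on none of the 6 arrays, so no fold is given.

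Both ferritin subunits were slightly higher in mPGC-1α with overlapping groups, and turned to -0.01 (Fth1) and -0.02 (Ftl1) with background correction by normexp and quantile normalization. Fth1, the heavy chain that oxidizes iron as it enters the shell, read 4.43, 4.17 and 3.98 in PGC-1αf/f and 4.33, 4.16 and 4.70 in mPGC-1α. The groups overlapped, and mPGC-1α replicate 3 was the highest array. The means were 4.19 ± 0.22 and 4.40 ± 0.27 (SD, n = 3 each), a difference of 0.21 ± 0.19 (SE, 95% interval -0.25 to 0.66, adjusted p = 0.604). Leaving out mPGC-1α replicate 3 gave 0.05, and leaving out PGC-1αf/f replicate 3 gave 0.10. Within slide columns 1 and 2 it was -0.10 and -0.0035, so the direction did not hold within columns. Ftl1, the light chain that seeds the mineral core, read 4.13, 4.13 and 4.01 in PGC-1αf/f and 4.27, 4.11 and 4.34 in mPGC-1α. Here too the groups overlapped, through mPGC-1α replicate 2. The difference was 0.15 ± 0.13 (SE, 95% interval -0.16 to 0.46, adjusted p = 0.569), and 0.14 and -0.02 within slide columns 1 and 2. The other Ftl1 probe was flagged as an outlier on 4 of 6 arrays, which leaves 1 array in each group and a difference of 0.08 (adjusted p = 0.920), and it gave 0.12 ± 0.14 (SE, adjusted p = 0.688) when flagged spots were kept. Both ferritin genes have processed pseudogenes of nearly the same sequence, so a probe may read more than the gene it is named for.

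Ncoa4, the receptor that carries ferritin to lysosomes, was lower in mPGC-1α without overlap. Its levels were 3.27, 3.04 and 2.985 in PGC-1αf/f and 2.94, 2.95 and 2.80 in mPGC-1α. The highest mPGC-1α array lay just under the lowest PGC-1αf/f array. The means were 3.10 ± 0.15 and 2.90 ± 0.09 (SD, n = 3 each), a difference of -0.20 ± 0.14 (SE, 95% interval -0.53 to 0.13, adjusted p = 0.477), and it was -0.32 and -0.09 within slide columns 1 and 2. The other Ncoa4 probe was flagged on 3 arrays and gave -0.38 ± 0.29 (SE, adjusted p = 0.551) from 1 PGC-1αf/f and 2 mPGC-1α arrays. With the flagged spots kept it gave -0.26 ± 0.17 (SE, adjusted p = 0.444) and the groups overlapped.

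Ireb2, the iron regulatory protein that is degraded when iron is plentiful, read 1.18, 1.09 and 1.52 in PGC-1αf/f and 1.05, 1.08 and 1.08 in mPGC-1α. The groups did not overlap, but only by the gap between 1.0882 in PGC-1αf/f replicate 2 and 1.084 in mPGC-1α replicate 3. The means were 1.26 ± 0.23 and 1.07 ± 0.02 (SD, n = 3 each), a difference of -0.19 ± 0.15 (SE, 95% interval -0.55 to 0.17, adjusted p = 0.534). Without PGC-1αf/f replicate 3 it was -0.07 ± 0.14 (SE, adjusted p = 0.902), and within slide columns 1 and 2 it was -0.14 and -0.01.

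The direction of Slc40a1, Slc11a1, Ncoa4, Slc11a2, Tfrc and Ireb2 was the same in each of 18 alternative analyses, and no gene of the 8 passed an adjusted p of 0.05 in any of them. Several of these analyses could not change the direction. The filters, the replicate block, eBayes with trend and robust and keeping outlier spots left the differences of these genes as they were. So did the mean over probes for Slc40a1, Slc11a1, Tfrc and Ireb2. Slc40a1 ranged from -0.70 to -0.33, with its smallest size when PGC-1αf/f replicate 3 was left out. Slc11a1 ranged from 0.20 to 0.41, Ncoa4 from -0.47 to -0.12, Slc11a2 from -0.28 to -0.07, Tfrc from 0.01 to 0.29 and Ireb2 from -0.33 to -0.07.

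**Figure D3:**
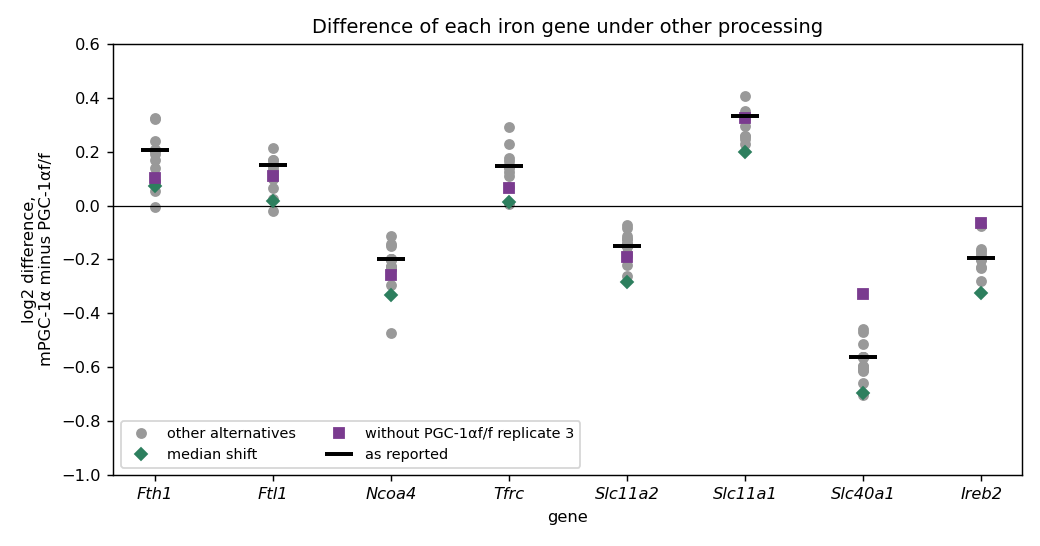
Log2 difference, mPGC-1α minus PGC-1αf/f (vertical axis), of 8 iron genes. The black bar is the reported value, grey circles are alternative analyses, the diamond is the shift by each array's median and the square is the analysis without PGC-1αf/f replicate 3. Slc40a1 moves from -0.56 to -0.33 without that array, Slc11a1 lies above 0 throughout, and Fth1 and Ftl1 reach values just below 0.

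A further 46 genes of iron and haem handling were examined, of which 37 had a probe that was tested. None of the 37 passed an adjusted p of 0.05 by limma. One of them, Tmprss6, was tested only because all mPGC-1α arrays measured it, so it had to be higher and is left out of the counts that follow. At an unadjusted p of 0.05, 1 of the other 36 was higher (Blvrb) and 1 lower (Slc25a37), smaller shares than the 7.53% and 9.21% of all tested probes. Of the 36, 27 were higher and 9 lower in mPGC-1α, that is 75% higher beside 49.7% of all tested probes, with a median of 0.15. Without PGC-1αf/f replicate 3, 20 were higher and 16 lower (55.6% beside 50.3%), the median was 0.06, and Slc25a37 alone had an unadjusted p under 0.05 (6.08% of all probes higher, 6.52% lower). The groups did not overlap for 5 that were higher (13.9%) and 3 that were lower (8.33%: Flvcr1, Slc25a37 and Slc25a28), beside the backgrounds of 11.4% and 13.7%. Blvrb and Slc25a28 are named because they make up these counts, a choice made after their values were seen.

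Among the genes of uptake and iron reduction, 7 of 8 tested were higher in mPGC-1α, with a median of 0.24, but 5 of 8 with a median of 0.17 without PGC-1αf/f replicate 3. Lcn2, a protein of neutrophil granules and activated glia that binds iron-loaded siderophores, had the highest difference of all 37 at 1.47 ± 0.86 (SE, adjusted p = 0.412). Its levels were 3.91, 4.29 and 0.75 in PGC-1αf/f and 4.32, 4.44 and 4.60 in mPGC-1α. The low array was PGC-1αf/f replicate 3, the one low in leukocyte markers, and without it the difference was 0.35 ± 0.18 (SE, adjusted p = 0.485). In the deposited intensities without scaling, Lcn2 was the 1 iron gene to pass the threshold (adjusted p = 0.0459). In that fit the SE was 0.43 for Lcn2 and for each of the 8 genes alike. This p therefore does not measure the spread of Lcn2 itself, whose SE was 0.86 in the main fit. The lowest of the role was Slc39a8, a zinc and iron importer, at -0.33 ± 0.18 (SE, adjusted p = 0.377). Tfr2, Steap4 and Cybrd1 were on no array well above background.

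Of the regulators of iron balance, 2 of the 4 counted were higher and 2 lower, with or without that array, and Hjv, Hamp and Hamp2, the last pair encoding hepcidins, were on no array well above background. Aco1, the other iron regulatory protein, was the lowest at -0.11 ± 0.14 (SE, adjusted p = 0.721), but -0.02 when mPGC-1α replicate 1 was left out and -0.05 when PGC-1αf/f replicate 1 was. Tmprss6, a membrane protease of the hepcidin pathway, was well above background on all mPGC-1α arrays and on no PGC-1αf/f array. It was at least 1.39-fold higher in mPGC-1α, set against a PGC-1αf/f mean that takes for each array the larger of the probe's own signal and the lowest signal well above background. That lowest signal ran from -4.17 to -3.15, and its upper end lies above the mPGC-1α mean of -3.19. The bound is thus one between group means and does not hold for each array. The adjusted p of 0.298 in limma belongs to the measured difference, whose direction the filter fixed, and not to this bound. With Tmprss6 at this bound the median over the 37 genes stayed at 0.16, which it had to, because the bound and the measured difference both lie above it.

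The partners of ferroportin were mixed, with 2 of 3 tested higher and a median of 0.04, which turned to 1 of 3 and -0.04 without PGC-1αf/f replicate 3. Heph, a copper oxidase that oxidizes exported iron, was the highest at 0.55 ± 0.35 (SE, adjusted p = 0.444). It was 0.29 without PGC-1αf/f replicate 3 and 0.85 without mPGC-1α replicate 3. Mon1a, which takes part in bringing ferroportin to the cell surface, was the lowest at -0.14 ± 0.17 (SE, adjusted p = 0.697), but -0.04 without PGC-1αf/f replicate 3 and -0.02 without mPGC-1α replicate 3. The cytosolic iron chaperones Pcbp1 and Pcbp2 differed by 0.03 ± 0.16 and 0.11 ± 0.17 (SE, adjusted p = 0.930 and 0.749), and both turned lower under some scalings of the arrays and without PGC-1αf/f replicate 3.

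Of 9 genes of haem import, export and breakdown, 7 were higher and 2 lower in mPGC-1α, with a median of 0.22, and the counts were the same without PGC-1αf/f replicate 3 (median 0.19). One of the 7, Cd163, is also among the border macrophage markers, all of which were higher in mPGC-1α, and the part of those cells in the haem genes was not tested. Blvrb, which reduces biliverdin, was higher by 0.36 ± 0.15 (SE, adjusted p = 0.297), with levels of 1.91, 2.09 and 1.88 in PGC-1αf/f and 2.42, 2.10 and 2.44 in mPGC-1α that did not overlap. The highest was Flvcr2 at 0.67 ± 0.42 (SE, adjusted p = 0.435), which was 0.21 without PGC-1αf/f replicate 3. The lowest was Flvcr1, a haem exporter, at -0.21 ± 0.14 (SE, adjusted p = 0.453), with groups that did not overlap, and -0.13 without mPGC-1α replicate 1.

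Of 10 genes of mitochondrial iron import and iron-sulphur clusters, 7 were higher and 3 lower, with a median of 0.08, but 5 higher and 5 lower with a median of -0.02 without PGC-1αf/f replicate 3. Both mitoferrins, the carriers that bring iron into mitochondria, were lower in mPGC-1α without overlap, each on its brightest probe. Slc25a37 read 2.93, 2.94 and 3.04 in PGC-1αf/f and 2.25, 2.65 and 2.54 in mPGC-1α. All mPGC-1α arrays lay under all PGC-1αf/f arrays, with a clear gap. The difference of -0.49 ± 0.15 (SE, 95% interval -0.84 to -0.14) had the lowest p of the 37 genes, with an adjusted p of 0.214 and an unadjusted p of 0.0135, and it was -0.45 without PGC-1αf/f replicate 3. Dimmer Slc25a37 probes, well above background on 2 of 3 arrays of each group, were not tested, and their groups overlapped. The PGC-1αf/f and mPGC-1α means were -3.22 and -3.505 on the first of them, and -3.55 and -3.16 on the other. Slc25a28 differed by -0.27 ± 0.13 (SE, adjusted p = 0.341).

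**Figure D4:**
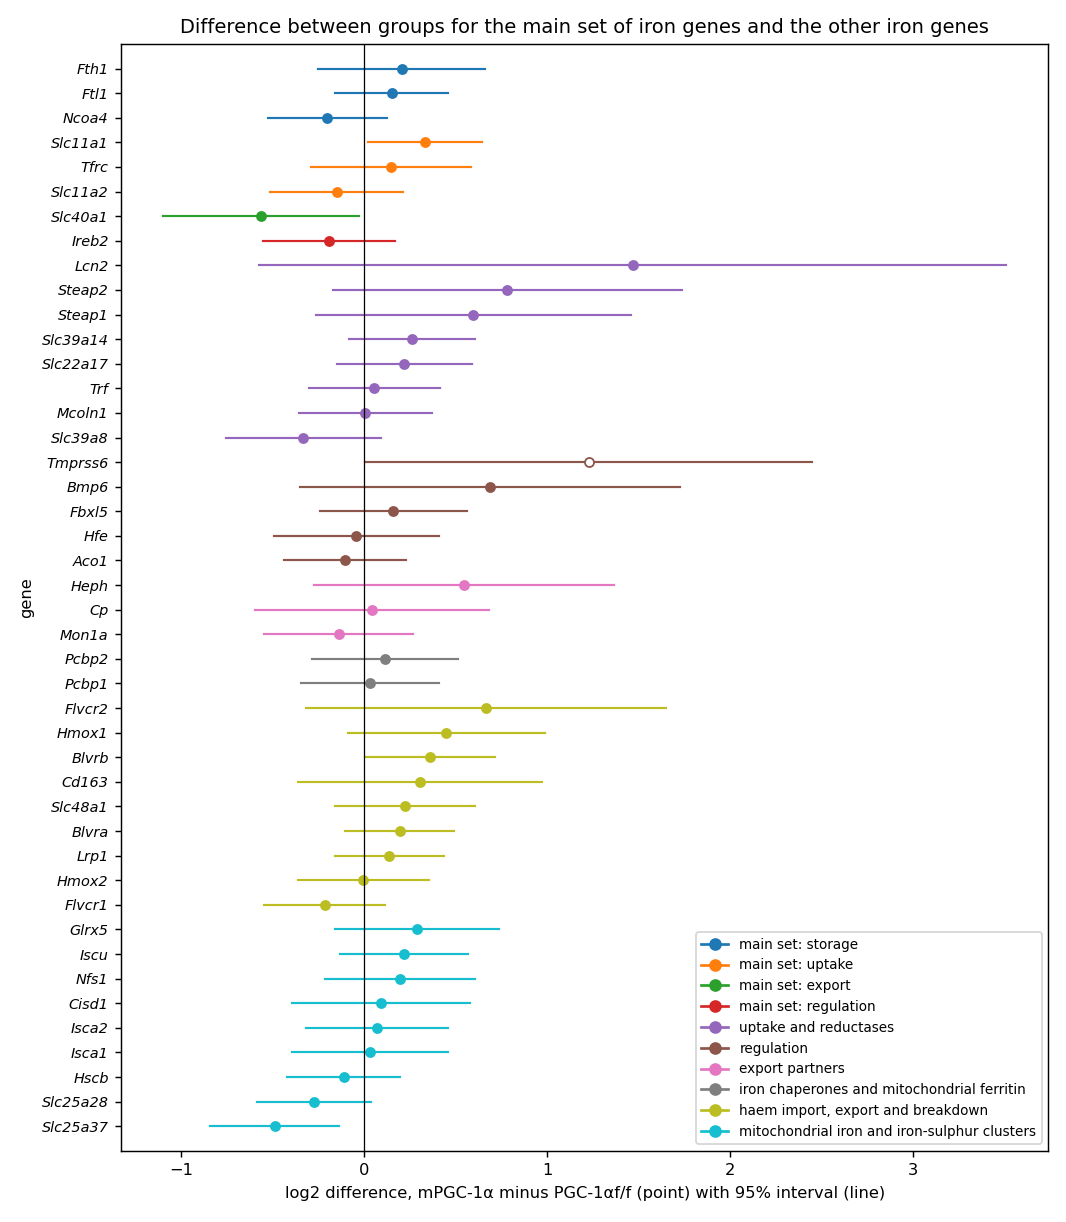
Log2 difference, mPGC-1α minus PGC-1αf/f (horizontal axis), with its 95% interval for the 8 tested genes of the main set (top) and for the other iron genes shown, coloured by role. The open circle is Tmprss6, which no PGC-1αf/f array measured well above background, so its point and line are not to be read, only its bound of at least 1.39-fold between group means. The intervals of Slc40a1 and Slc25a37 lie below 0 and those of Slc11a1 and Blvrb above it before adjustment, and that of Lcn2 is the widest.

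The genes whose pattern over the 6 arrays was most like each of 3 iron genes were sought among 11564 named genes well above background on every array, as a description of few points that share group and array quality. For Fth1 they were Gla (Pearson r = 0.999), Rpl37rt (0.996) and Brsk1 (0.995). For Tfrc they were Poldip2, Acyp2 and Ak6 (0.991 each). For Slc40a1 they were Gm7102 (0.993), Prkd3 (0.989) and Adra2a (0.989). None of these is another gene of iron handling in the lists used here.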

How the data were processed

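RNA of P2RY12-selected microglia, 3 samples per group, was labelled with Cy5 and hybridized by the authors to 1-colour Agilent mouse 8x60k arrays. The deposited scanner files hold the intensity of each spot from Feature Extraction 11.5.1.1, after background subtraction and spatial detrending, with flags for spots above background, saturated or outlying. The series table that the authors deposited repeats these intensities (equal, within a tolerance of 1%, for 100% of spots) and is not normalized between arrays. GeneSpring is the normalization software the methods mention, and they state no test per gene.

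From each log2 intensity the 75th percentile of its array, over 59305 non-control spots, was subtracted. Spots flagged as outliers were left out and spots of 1 probe averaged. A test needed a probe well above background throughout 1 group or both, which held for 25333 of 56605, and was run with limma 3.58.1 in R 4.3.3 (lmFit, eBayes, two-sided, Benjamini-Hochberg over all tested probes). The code was checked on simulated data. Files were read with data.table (version 1.17.8), and the figures were made in Python 3.11.15 (numpy 2.4.6, pandas 2.3.3, matplotlib 3.10.9). Transcript accessions were matched to RefSeq symbols of GRCm38.p6, which named 33767 probes. The build of the array design is not given in the sources used here, and no probe sequences were used. A gene was represented by its brightest probe among those measured on all 6 arrays.

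The 9 genes, the 46 other iron genes, the marker lists and the tests were chosen with earlier results of these data known. Named are all 9 genes with every probe, the other iron genes with the highest and lowest difference per role, those past the threshold, and those with groups apart and a log2 difference of at least 0.5. Some genes of these lists are counted but not reported here by name or plotted. Ppargc1a was named as a check, and the 3 nearest patterns were listed for Fth1, Tfrc and Slc40a1. Alternatives changed the scaling (quantile, median shift, normexp with offset 50 on median spot signals followed by quantile, or the unscaled deposited values), the filter (none, or all 6 arrays), the model (a replicate block, slide column as a random block, eBayes with trend and robust, array weights), the probes (their mean per gene) and the arrays (leaving out each in turn). Keeping outlier spots, and repeating the counts by role and the marker counts without PGC-1αf/f replicate 3, were chosen after seeing the data. All arrays lay on 1 slide and were scanned once, with PGC-1αf/f in row 1 and mPGC-1α in row 2, so row and group cannot be told apart. The number of arrays limits the precision.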

Additional observations from a re-analysis of the deposited data

How the results depend on the processing

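None of the 8 tested genes passed an adjusted p of 0.05 under any of 18 alternatives, nor did Steap3 in the 1 that tested it (no filter on dim probes), while the number of all probes that passed ran from 0 to 754 (array weights). Leaving out each array in turn gave 0 of the 8 genes and 0 of the other iron genes past the threshold, a median of -0.05 to 0.03 for the 8 genes and one of 0.07 to 0.24 for the other iron genes (all 37, Tmprss6 included, as in the medians that follow). The median of the 8 genes moved by more than the spread between arrays under 3 alternatives, to -0.13 with a median shift, -0.10 with normexp and quantile normalization and 0.15 with no filter on dim probes, which adds Steap3. The median shift moved all tested probes to -0.14, so relative to all probes the 8 genes did not shift further. In the deposited table with no shift, 1 other iron gene passed the threshold, Lcn2 at 1.43 (adjusted p = 0.0459), where 456 probes passed in all. There the SE was 0.43 for Lcn2 and for each of the 8 genes alike, so this p does not measure the spread of Lcn2 itself. With normexp and quantile normalization Fth1 turned to -0.0066, Ftl1 to -0.0213, Pcbp1 to -0.0465 and Pcbp2 to -0.1038. Pcbp1 also turned to -0.0809 with quantile normalization, -0.0992 with a median shift, -0.0013 in the deposited table, -0.0095 with slide column as a random block, -0.0442 with array weights, -0.0722 without PGC-1αf/f replicate 3 and -0.0241 without mPGC-1α replicate 3. Pcbp2 turned to -0.0185 with a median shift and -0.0168 without PGC-1αf/f replicate 3. The cause of these turns was not tested. Ncoa4 reached -0.47 with the mean over probes, which by its construction mixes a dimmer probe into the arrays where that probe was not flagged. The labels number replicates 1 to 3 in both groups, but deviations of same-numbered arrays correlated by only 0.14, 0.13 and 0.02, and the samples were treated as unpaired. With the replicate block, 0 of the 8 genes, 0 of the other iron genes and 0 probes in all passed, beside 20 without it. With 1 array of each group per block the differences of these genes cannot change. The medians of the 8 and of all 37 genes therefore stayed at -0.0015 and 0.16 by design. Depth in the sense of signal over background limits Steap3, the dimmest probes of Slc11a2 and Tfrc and Tmprss6 in PGC-1αf/f.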
